A study of Mus musculus with 14 samples.

Results

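Vessel-cell transcripts in sorted muscle precursor cells were followed through 10 genes of the endothelium: Pecam1, Cdh5, Kdr, Flt1, Tek, Tie1, Cldn5, Egfl7, Emcn and Esam. Every probe set (a group of short probes read as 1 value) that the array annotation gives to 1 of these genes alone was taken, which made 17 of the 45101 probe sets on the array and 10 of the 18193 genes with a probe set of their own. The genes were listed by name and not by their values, though with earlier results of these data known. A probe set counted as dim unless its value exceeded the 40th percentile of its own array, which lay between log2 3.79 and 3.96, on 4 or more arrays of the 14. By that rule 11 of the 17 probe sets were kept, and 7 of the 10 genes entered the tests among 13579 genes. Pecam1, Tie1 and Emcn had no kept probe set, and the rule is not a call of presence or absence.

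The arrays held RNA of skeletal muscle precursor cells from young mice (2 months, 5 arrays), middle-aged mice (12 months, 4 arrays) and aged mice (24 months, 5 arrays), all with the C57BL/6 background and with no treatment on the labels. The sorted population lacked CD45, Ter119 and Sca-1 and carried CD29 and Cxcr4, which is a sort that selects for satellite cells, from which muscle is repaired. The series asks which transcripts change with age in these cells, and the endothelial genes bear on how much vessel-cell RNA the sorted populations held. Whether the arrays stand for separate animals is not on the labels, so p-values measure only the spread between these samples, which may be technical. In a bulk sample, fewer cells of a type and less RNA per cell cannot be told apart.

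Endothelial cells line blood and lymph vessels, and in muscle a dense capillary bed runs along every fibre, next to the satellite cells. The cells are held together by cadherin, claudin and immunoglobulin-type adhesion proteins at their junctions. Their growth and quiescence are steered by receptor tyrosine kinases, those for vascular endothelial growth factor (VEGF) and those for the angiopoietins. Capillary endothelium of muscle carries Sca-1, one of the markers that the gate selects against. Tek, which encodes the angiopoietin receptor Tie2, is not strictly endothelial, since it has also been described on satellite cells.

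The sorted cells carried the myogenic markers their label calls for. Pax7, which encodes the defining transcription factor of satellite cells, lay between log2 8.39 and 9.90 over the 14 arrays, and Myod1, a myogenic factor, between 10.54 and 11.33. Itgb1, which encodes the sort marker CD29, lay between 7.66 and 9.25 and Cxcr4 between 7.42 and 8.92. These values are of the kept probe set with the highest mean. Another kept probe set ran from 5.47 to 7.63 for Pax7 (1452510_at) and from 6.25 to 7.87 for Itgb1 (1426918_at). The remaining Itgb1 probe sets, and another of Myod1, were not kept. Both probe sets of Ptprc, which encodes CD45, lay below the 40th percentile on all 14 arrays, and Ly6a, which encodes Sca-1, had no probe set of its own. The arrays also fell into 2 sets that cross the ages (set 1 held aged 1 and 2, middle-aged 2, 3 and 4, and young 1, 3 and 4, and set 2 the others), read from the first principal component of age-centred values, and values within these sets are given for aged against young cells. The gap between 3' and 5' control probe sets for Gapdh and Actb, which widens as RNA is degraded, was 3.54 ± 0.51 on aged and 4.30 ± 0.54 on young arrays (SD, n = 5 each), a difference of -0.77 (exact two-sided permutation p = 0.0714).

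Promoter windows show what sequence stands at the starts of members whose arrays differed most. ETS factors, a family with endothelial members, bind short strings around GGAA. The strings AGGAAG and CGGAAG, which differ in their first base, were searched on both strands in RefSeq windows of GRCm38.p6. A window runs from 250 bases before to 50 bases after a start listed for a gene. For Kdr, Flt1 and Tek that start lay inside the annotated span of the gene. The first 3 windows belong to genes that were highest on the same aged array, and the last to Tek, which was not. The letters run 5′ to 3′ along the gene's strand, and capitals mark the matches. The windows are chr5:75978406-75978705 on the minus strand (Kdr), chr16:18776597-18776896 on the plus strand (Cldn5), chr5:147725962-147726261 on the minus strand (Flt1) and chr4:94739039-94739338 on the plus strand (Tek).
Kdr: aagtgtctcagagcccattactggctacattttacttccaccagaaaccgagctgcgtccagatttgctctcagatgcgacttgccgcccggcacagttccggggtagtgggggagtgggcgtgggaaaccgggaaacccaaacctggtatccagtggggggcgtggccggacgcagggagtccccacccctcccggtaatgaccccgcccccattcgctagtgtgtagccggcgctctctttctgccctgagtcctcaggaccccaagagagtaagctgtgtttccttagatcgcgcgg
Cldn5: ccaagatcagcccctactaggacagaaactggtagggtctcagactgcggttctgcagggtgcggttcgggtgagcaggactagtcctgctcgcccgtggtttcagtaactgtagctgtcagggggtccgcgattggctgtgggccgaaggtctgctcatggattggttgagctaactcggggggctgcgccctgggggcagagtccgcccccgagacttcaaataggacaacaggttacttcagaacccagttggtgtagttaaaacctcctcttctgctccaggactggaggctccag
Flt1: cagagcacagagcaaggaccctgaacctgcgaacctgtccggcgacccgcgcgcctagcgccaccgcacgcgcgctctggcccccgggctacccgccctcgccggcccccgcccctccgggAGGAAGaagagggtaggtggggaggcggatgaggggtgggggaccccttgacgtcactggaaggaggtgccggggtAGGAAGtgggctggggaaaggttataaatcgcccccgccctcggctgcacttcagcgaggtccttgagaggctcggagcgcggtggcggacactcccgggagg
Tek: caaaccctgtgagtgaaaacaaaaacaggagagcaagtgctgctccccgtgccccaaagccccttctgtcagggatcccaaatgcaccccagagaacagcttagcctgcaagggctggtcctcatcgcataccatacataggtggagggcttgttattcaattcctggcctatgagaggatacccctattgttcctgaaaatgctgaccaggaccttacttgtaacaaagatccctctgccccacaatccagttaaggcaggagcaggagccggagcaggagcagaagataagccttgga
Flt1 held 2 matches, both AGGAAG and both before the listed start, and neither string occurred in the other 3 windows. Of 32851 windows in the whole table, 46.5% held at least 1 match and 15.9% held 2 or more. Of the 9 windows found for 7 members, 5 held a match, each of them 2 or more, and the others held none. A match of letters is a description and not a binding site. The 7 members with a window were Kdr, Flt1, Tek, Tie1, Cldn5, Egfl7 and Emcn.

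Of the VEGF receptors, Kdr (Entrez 16542), the main signalling receptor of blood endothelium, was measured by 1 probe set above the 40th percentile on all 14 arrays. Its log2 values were 5.86, 4.25, 4.50, 5.54 and 4.84 on young arrays 1 to 5, 4.44, 4.26, 5.27 and 4.51 on middle-aged arrays 1 to 4, and 4.59, 6.08, 7.31, 4.42 and 4.54 on aged arrays 1 to 5. Aged arrays 3 and 2 were the highest of all, while the other 3 aged arrays lay within the young range. The means of the young, middle-aged and aged arrays were 5.00 ± 0.68, 4.62 ± 0.44 and 5.39 ± 1.27 (SD over 5, 4 and 5 arrays).

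Flt1 (Entrez 14254), the other VEGF receptor of blood vessels, which also binds VEGF as a decoy, had 4 probe sets. The one with the highest mean (1451756_at), which stands for the gene in the tests, read 4.18, 4.61, 4.05, 4.47 and 4.28 on young, 4.31, 4.66, 4.91 and 4.73 on middle-aged, and 4.48, 5.44, 5.55, 3.86 and 3.93 on aged arrays. Another kept probe set (1419300_at) had a wider range, with 3.44, 3.49, 3.37, 4.22 and 4.18 on young, 4.39, 4.08, 5.90 and 3.99 on middle-aged, and 4.56, 5.91, 8.01, 4.02 and 3.10 on aged arrays. Both were highest on aged array 3. The second lay above the 40th percentile on 2 of 5 young, 4 of 4 middle-aged and 4 of 5 aged arrays, so the probe sets of Flt1 differ in how far they move. The remaining pair, 1454037_a_at and 1440926_at, passed that percentile on 3 and 0 arrays and was not kept.

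Tek (Entrez 21687), the receptor of the angiopoietins, had another order of arrays than the VEGF receptors. Its values were 7.73, 8.20, 7.89, 7.67 and 7.80 on young, 7.80, 7.29, 6.75 and 6.80 on middle-aged, and 6.32, 7.26, 7.68, 6.27 and 5.86 on aged arrays. It was highest on young array 2 and lowest on aged array 5, and aged array 3, at 7.68, overlapped the lowest young array by a narrow margin (7.67). At 2, 12 and 24 months the means were 7.86 ± 0.21, 7.16 ± 0.49 and 6.68 ± 0.76 (SD over 5, 4 and 5 arrays). Tie1 (Entrez 21846), a relative of Tie2 that is regarded as an orphan receptor, was above the 40th percentile on only 3 arrays, young 1 at 4.81, young 3 at 4.65 and aged 5 at 4.08. Its other 11 values lay between 3.30 and 3.90.

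At the junctions, Pecam1 (Entrez 18613), the platelet-endothelial adhesion protein CD31 by which vessel cells are commonly recognised, was below the 40th percentile on all 14 arrays, with values from 3.08 to 3.67. Its 1 probe set read 3.23, 3.20, 3.32, 3.14 and 3.18 on the aged arrays, so aged array 3, high for other members, stayed dim for Pecam1. Cdh5 (Entrez 12562), the cadherin of endothelial adherens junctions, entered the tests with the fewest arrays the rule allows. Its kept probe set (1433956_at) passed the 40th percentile on young 4 (4.36), middle-aged 3 (4.21), aged 2 (4.09) and aged 3 (4.90), and its other 10 values ran from 3.40 to 3.86. The second Cdh5 probe set (1422047_at) was below that percentile on all 14 arrays.

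Cldn5 (Entrez 12741), the claudin of endothelial tight junctions, gave 7.08, 4.99, 5.90, 6.50 and 5.05 on young, 4.55, 5.32, 5.26 and 4.27 on middle-aged, and 4.84, 6.76, 7.83, 5.69 and 5.17 on aged arrays. The highest arrays were aged 3 and young 1, followed by aged 2 and young 4, so the high values were not found in 1 age alone. Esam (Entrez 69524), an adhesion molecule of endothelial tight junctions also known from platelets, read 4.75, 4.98, 4.96, 5.43 and 5.32 on young, 4.87, 5.06, 5.32 and 5.27 on middle-aged, and 5.26, 6.23, 7.55, 5.33 and 5.66 on aged arrays. Aged arrays 2, 3 and 5 lay above every young and middle-aged array, and aged arrays 1 and 4 lay within the young range.

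Egfl7 (Entrez 353156), a factor secreted by endothelial cells, had 4 probe sets, all kept. The one that stands for the gene (1451427_a_at) gave 6.22, 5.54, 6.14, 6.28 and 5.55 on young, 5.28, 5.43, 5.45 and 5.74 on middle-aged, and 5.43, 6.19, 6.70, 5.52 and 5.49 on aged arrays. Young 1, 3 and 4 and aged 2 and 3 were high and every middle-aged array was below them. The 1451428_x_at probe set, whose suffix marks possible cross-hybridisation, had the same 5 arrays at the top, at 6.17, 5.43 and 5.82 on those young and 6.14 and 6.88 on those aged arrays. The 1435823_x_at probe set was highest on aged 2 (5.68) and young 1 (5.67), and the remaining one, 1421335_a_at, passed the 40th percentile on 12 arrays. Emcn (Entrez 59308), a sialomucin of venous and capillary endothelium, passed the 40th percentile on aged 3 (4.41) and aged 5 (3.98) and ran from 2.88 to 3.47 on the other 12 arrays.

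**Figure D1:**
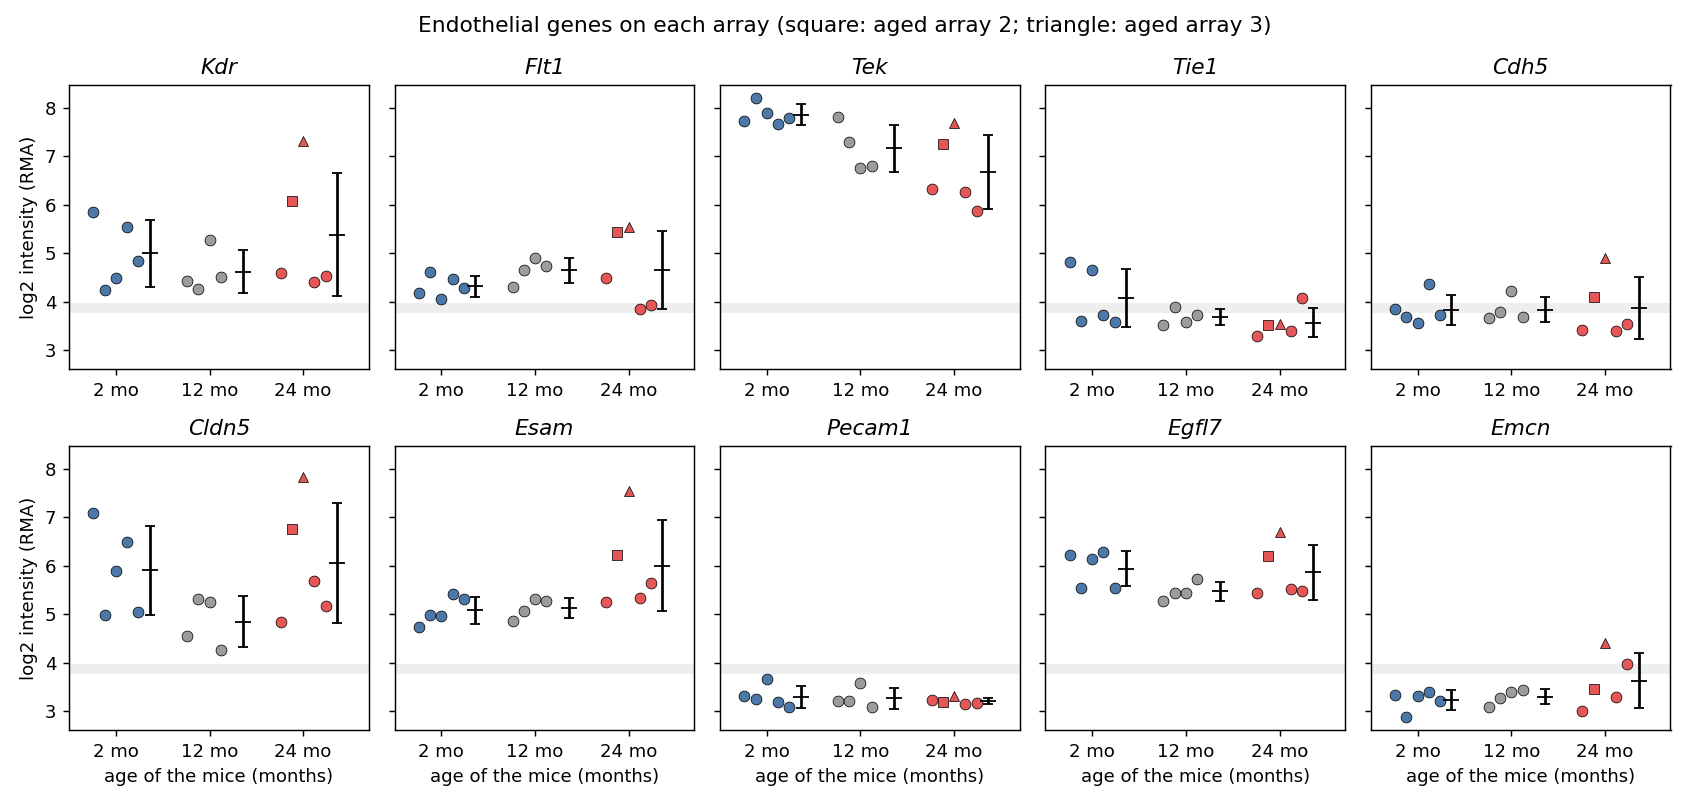
Log2 intensity of each endothelial gene (its probe set with the highest mean) on each array, with young, middle-aged and aged arrays from left to right. Points are arrays, the square is aged 2 and the triangle aged 3, black bars are means ± SD, and the grey band is the range of the arrays' 40th percentiles; Pecam1 lies below the band throughout and Tek is lower on most aged than on young arrays.

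The longest interval, 24 against 2 months, was compared first. Of the 7 tested members, 1 fell and 0 rose, beside 4.30% of all 13579 genes called (1.25% lower and 3.05% higher). The member that fell was Tek, by a log2 change of -1.18 ± 0.31 (SE), which is 2.27-fold lower in aged than in young cells (limma adjusted p = 0.0400, 95% interval -1.83 to -0.53). Leaving out aged array 3 gave -1.43 (adjusted p = 0.00865), and leaving out aged array 2 gave -1.33 (adjusted p = 0.0308). The call was lost when any 1 young array, or aged array 1, 4 or 5, was left out (adjusted p from 0.0660 to 0.0929), with the change nearest 0, -0.98, in the fit that lacked aged array 5. When the 3' to 5' gap was a covariate, the change was -1.39 ± 0.39 (adjusted p = 0.0661). Within array sets 1 and 2, Tek was lower in aged cells by a log2 difference of -0.98 (2 aged, 3 young arrays) and -1.40 (3 aged, 2 young).

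The other 6 tested members did not pass between aged and young cells. Esam, at 6.01 ± 0.94 on aged and 5.09 ± 0.28 on young arrays, had the largest positive change, 0.92 ± 0.34 (adjusted p = 0.164, 95% interval 0.19 to 1.64), which was 0.53 ± 0.21 without aged array 3. Kdr had 0.39 ± 0.50 (adjusted p = 0.756, 95% interval -0.66 to 1.44), Flt1 0.33 ± 0.30 (0.636) and Cldn5 0.15 ± 0.53 (0.922, 95% interval -0.97 to 1.27). The other kept Flt1 probe set, 1419300_at, had 1.38 ± 0.69 in a fit of every kept probe set (adjusted p = 0.367). Egfl7 and Cdh5 had -0.08 ± 0.24 (0.915) and 0.03 ± 0.26 (0.967). The intervals of Kdr and Cldn5 leave room for changes of more than 1 log2 unit, since the spread among aged arrays was wide. The median over the 7 members was 0.15, beside -0.05 over all genes, and 5 of the 7 changes were positive.

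That median turned on aged arrays 2 and 3. Without both together it was -0.46, and the changes of Kdr (-0.48), Flt1 (-0.23), Cldn5 (-0.67) and Cdh5 (-0.38) were then negative, none past the test, while Tek stood at -1.71 ± 0.24 (adjusted p = 0.00279) and Esam at 0.33 ± 0.19 (adjusted p = 0.441). These arrays were chosen with their values known. Within array set 1 the median of the members was -0.17, with 3 of 7 higher in aged cells, and within set 2 it was 0.36, with 6 of 7 higher. The aged minus young difference had opposite signs in sets 1 and 2 for Cldn5 (-0.70 and 1.21), Egfl7 (-0.40 and 0.36) and Cdh5 (-0.17 and 0.24). Kdr had 0.04 and 0.88, Flt1 0.73 and 0.00, and Esam 0.70 and 1.03. Aged arrays 2 and 3 fall in different sets, and these differences between sets were not tested. In a fit without the filter on dim probe sets, Tie1 had -0.50 ± 0.24 (adjusted p = 0.375), Emcn 0.41 ± 0.22 (0.433) and Pecam1 -0.09 ± 0.12 (0.813).

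**Figure D2:**
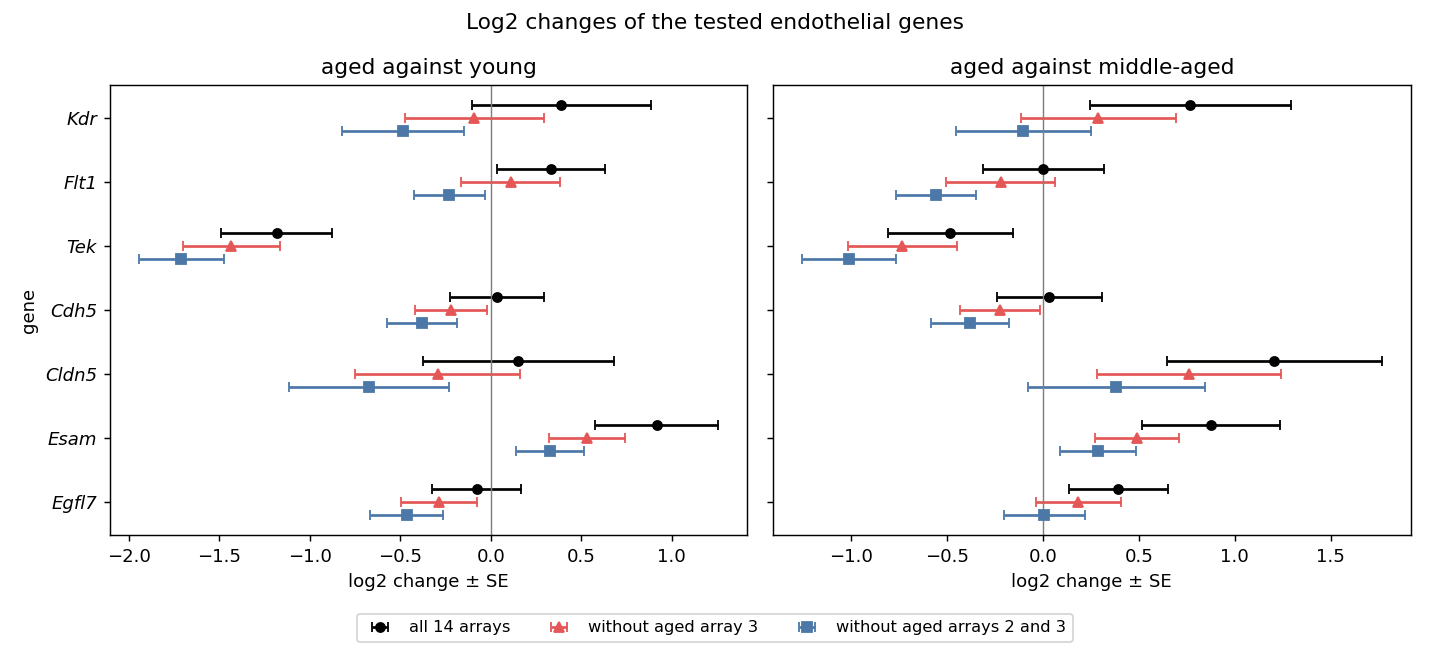
Log2 change ± SE of the 7 tested genes in aged against young (left) and aged against middle-aged cells (right), from all 14 arrays (black), without aged array 3 (red) and without aged arrays 2 and 3 (blue). Tek is negative in every fit, while Kdr and Cldn5 against young cells stand at 0.39 and 0.15 with all arrays and at -0.48 and -0.67 without both.

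In middle-aged against young cells, 0 of 7 members passed the limma test, beside 2.97% of all genes, and 1 of 7 had an unadjusted p under 0.05, beside 16.3% of all genes. That member was Tek, with 7.16 ± 0.49 on middle-aged and 7.86 ± 0.21 on young arrays, a change of -0.70 ± 0.32 (adjusted p = 0.301). Cldn5, at 4.85 ± 0.52 against 5.91 ± 0.91, had -1.06 ± 0.56 (adjusted p = 0.378), Egfl7 -0.47 ± 0.26 (0.404), Kdr -0.38 ± 0.53 (0.801) and Flt1 0.33 ± 0.32 (0.683). Esam and Cdh5 stood at 0.04 ± 0.36 and 0.00 ± 0.27. The median over the members was -0.38, beside -0.04 over all genes.

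In aged against middle-aged cells, 0 of 7 members and 0 of 13579 genes (0%) passed the limma test, while 2 of 7 members and 9.62% of genes had an unadjusted p under 0.05. These were Cldn5, at 6.06 ± 1.23 on aged and 4.85 ± 0.52 on middle-aged arrays (1.21 ± 0.56, adjusted p = 0.513), and Esam, at 6.01 ± 0.94 against 5.13 ± 0.21 (0.88 ± 0.36, adjusted p = 0.472). Without aged array 3 they had 0.76 ± 0.48 and 0.49 ± 0.22. Tek had -0.48 ± 0.32 (adjusted p = 0.639), Kdr 0.77 ± 0.53 and Egfl7 0.39 ± 0.26. The members' median was 0.39, beside 0.01 over all genes. The comparisons share their arrays pairwise, so their values are not independent of one another.

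Most members were high on the same arrays. Aged array 3 was the highest of the 14 for 6 of the 7 tested members (85.7%), for 8 of 17 other pan-endothelial genes (47.1%) and for 8.63% of all genes tested. These counts depend in part on the filter. Cdh5, and Vwf among the other genes, passed it on just 4 arrays, aged 3 among them. Of the members not kept, Pecam1 was highest on young 3, Tie1 on young 1 and Emcn on aged 3. The mean over the 7 members was 5.67, 5.18, 5.29, 5.75 and 5.23 on young, 4.99, 5.12, 5.31 and 5.00 on middle-aged, and 4.91, 6.01, 6.79, 4.93 and 4.89 on aged arrays. Aged arrays 3 and 2 stood highest, and the remaining 3 aged arrays were lower than every young one.

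**Figure D3:**
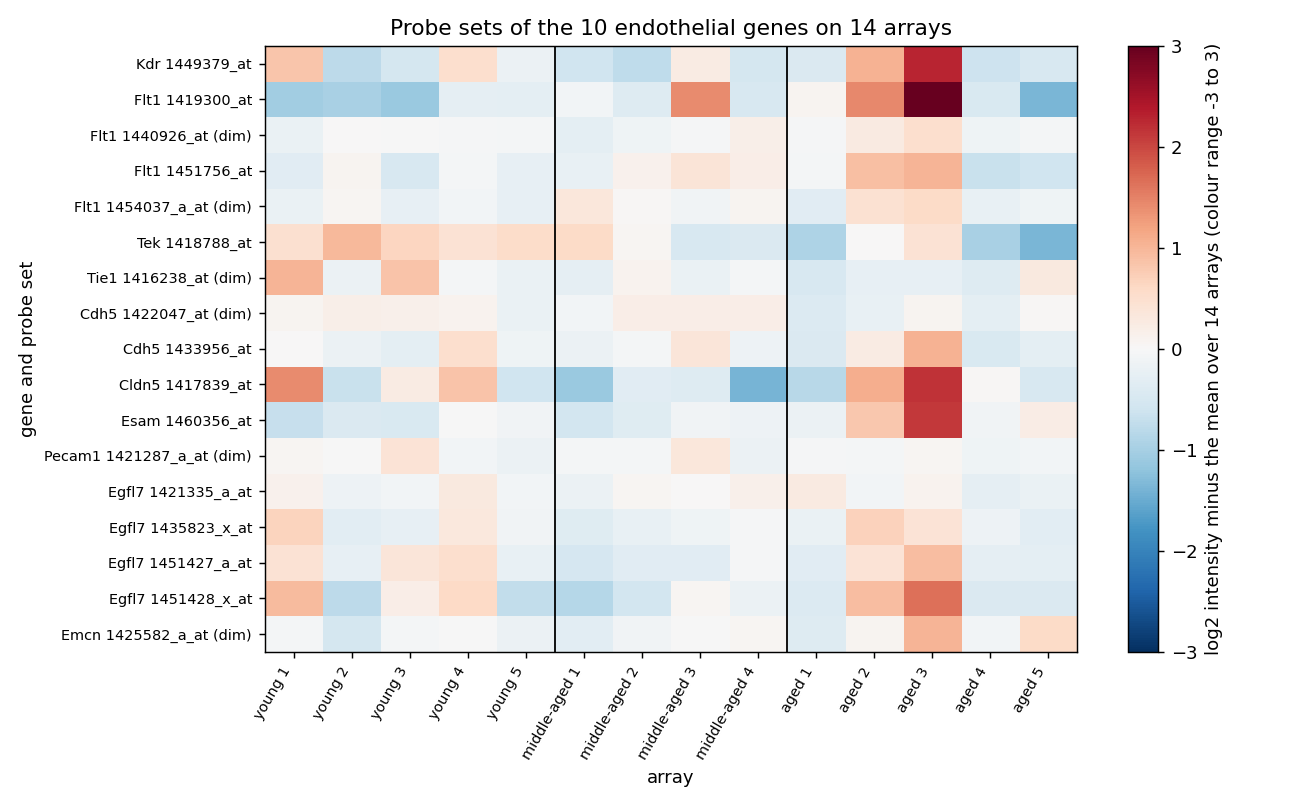
Log2 intensity of every probe set of the 10 genes, each centred on its own mean over the 14 arrays, with arrays in columns (young, middle-aged, aged). Aged 3 is high for most probe sets of Kdr, Flt1, Cldn5, Esam and Egfl7, and Tek runs from high on young to low on aged 1, 4 and 5.

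Between members over the 14 arrays, Cldn5 varied most closely with Egfl7 (Pearson r = 0.88, 0.82 without aged array 3), and Kdr with Cdh5 (0.87 and 0.72) and with Cldn5 (0.87 and 0.78). Flt1 and Cldn5 were less alike (0.40, and 0.08 without aged array 3). Tek was the least alike to its fellow members, with r between -0.07 (Esam) and 0.39 (Egfl7). Without aged array 3 its r ran from -0.43 (Esam) to 0.36 (Egfl7). These coefficients describe arrays that share age groups and array sets, and carry no test.

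The 10 genes outside the list whose levels were most like the mean of the members over 14 arrays were Ptprb, Mbnl3, Btnl9, E2f8, Mfsd1, Tspan13, Kank3, Sox18, Gpihbp1 and Mmrn2, with Pearson r from 0.90 to 0.93. Ptprb encodes the endothelial phosphatase that acts on Tie2, Sox18 a transcription factor of vessels, Gpihbp1 the capillary anchor of lipoprotein lipase and Mmrn2 a matrix protein of endothelium. On aged array 3, Ptprb read 7.84 and at most 6.35 elsewhere, Gpihbp1 8.81 against 7.21, Sox18 5.80 against 4.84 and Mmrn2 7.08 against 6.36. The 10 genes were each highest on aged array 3, as was the members' mean by which they were chosen. That peak therefore follows largely from the choice and is not separate support. Without aged arrays 2 and 3, the coefficients lay between 0.58 (Tspan13) and 0.86 (Mmrn2).

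Other endothelial genes were read through lists, beside 3.05% of all genes called higher and 1.25% called lower in aged against young cells. Of 17 tested of 18 other pan-endothelial genes, 0 passed in aged against young cells, with a median of 0.06, and their mean read 4.76, 5.16, 5.79, 4.57 and 4.67 on aged arrays 1 to 5 against 4.83 ± 0.28 on young arrays. Vwf, the clotting protein stored by endothelial cells, read 4.60, 4.53, 6.36, 3.50 and 3.43 on aged arrays against 3.26 to 3.61 on young arrays. All 5 young values were below the 40th percentile, so its fitted change of 1.05 ± 0.44 (adjusted p = 0.235) is measured from a dim level, and it was 0.58 without aged array 3. Of 11 tested endothelial transcription factors, 1 rose, Klf2, a factor induced by blood flow, with 1.38 ± 0.21 in aged against young cells (2.60-fold, adjusted p = 0.00116) and 1.28 in middle-aged against young cells (adjusted p = 0.00500), and the median was 0.00. Klf2 is also made by cells other than endothelium. Of 8 arterial and venous genes tested of 12 listed, 0 passed (median 0.01), and of 8 junction partners tested of 9, 0 passed (median -0.26). Among these partners only 1 change was positive, that of Jam2, a junctional adhesion molecule. It had 1.04 ± 0.38 (adjusted p = 0.159), and 0.58 ± 0.20 without aged array 3 (0.136). Jam3 had -0.61 ± 0.25 (adjusted p = 0.212).

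Capillary genes were the list with the widest range. Of 7 tested, 1 rose in aged against young cells, beside 3.05% of all genes, and the median was 1.25, beside -0.05 over all genes. The gene that rose was Fabp4, a fatty acid carrier of capillary endothelium and of fat cells, with 6.37, 7.44, 11.10, 6.80 and 7.57 on aged arrays against 3.87, 4.23, 4.55, 4.37 and 6.51 on young arrays. Its change was 3.15 ± 0.79 (8.86-fold, adjusted p = 0.0347), and it was lost when any of young arrays 1 to 4, aged 2 or aged 5 was left out (adjusted p from 0.0540 to 0.0938). The change was 2.34 (5.05-fold, adjusted p = 0.0357) without aged array 3 and 3.60 (12.1-fold) without young array 5. The groups overlapped. Cd36, the fatty acid translocase, read 4.22, 5.03, 8.55, 4.92 and 4.64 on aged arrays against 3.16 to 3.65 on young arrays. All 5 young values of Cd36 were below the 40th percentile and it was kept through the older arrays, so its fitted change, 2.05 ± 0.62 (adjusted p = 0.0828) and 1.28 ± 0.30 without aged array 3 (0.0261), is measured from a dim level. The water channel Aqp1 had 1.72 ± 0.66 (adjusted p = 0.185), and 1.11 without aged array 3. Rgcc, a regulator of the cell cycle, had 1.25 ± 0.40 (adjusted p = 0.0960), and 0.93 to 1.57 as single arrays were left out (called without young array 2, adjusted p = 0.0191, or young array 5, 0.0460). Gpihbp1 had 0.52 ± 0.65 (adjusted p = 0.750), and -0.15 without aged array 3. Of the 7 changes 6 were positive, and the other was that of Cav1, at -0.52 ± 0.19 (adjusted p = 0.165). Over the list, aged array 3 had a mean of 9.36 and aged array 2 one of 7.54, while young arrays ran from 6.00 to 6.69.

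Ligands and co-receptors of the VEGF and angiopoietin systems, 8 tested of 9 listed, gave 0 calls in any comparison, with a median of 0.48 in aged against young cells. Angpt2, the angiopoietin that opposes Tie2 signalling in vessels, had 0.52 ± 0.16 (adjusted p = 0.0956), with 4.86, 5.10, 5.36, 5.35 and 4.87 on aged arrays, all above the young arrays at 4.85, 4.52, 4.56, 4.74 and 4.28, by a narrow margin for aged 1 and young 1. Groups that did not overlap in this direction were found for 3.48% of genes. Angpt1, the ligand that activates Tie2, had 0.83 ± 0.42 (adjusted p = 0.353), Vegfc -0.85 ± 0.27 (0.0970) and Vegfa -0.71 ± 0.25 (0.141).

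In their list mean, lymphatic genes overlapped with the pan-endothelial ones in their high arrays, except for aged array 3. Their list mean was 8.28, 6.27, 7.43, 8.03 and 7.28 on young, 6.92, 6.80, 7.28 and 6.81 on middle-aged, and 6.75, 7.65, 7.22, 6.45 and 6.92 on aged arrays. Young 1 and 4, which were the highest young arrays for the members' mean, were the highest of all 14 for this list, followed by aged 2, while aged 3, at 7.22, was below young 3. Young 1, 3 and 4, the highest young arrays for this list, are the young arrays of array set 1. At equal age, set 1 minus set 2 was 1.39 (Reln), 1.09 (Flt4), 0.90 (Lyve1), 0.63 (Mmrn1), -0.01 (Pdpn) and -0.56 (Prox1), given without a test. Of its 6 tested genes 0 passed in aged against young cells (median -0.49), among them Lyve1, the hyaluronan receptor of lymph vessels, with -0.90 ± 0.67 (adjusted p = 0.558). The part of these lists in the members' values was not tested.

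Markers of other cells of muscle are given beside these values, among them leukocytes, erythroid cells and fibro-adipogenic cells, which the gate against CD45, Ter119 and Sca-1 is meant to remove. Pericyte and smooth muscle genes had list means of 7.40 ± 0.42 on aged and 6.73 ± 0.16 on young arrays, highest on aged array 4 (7.93), not on aged array 3 (7.28). Of 10 tested, 1 rose, Pdgfrb, the PDGF receptor that pericytes and fibroblasts carry (2.77 ± 0.32, adjusted p = 0.000215). Leukocyte genes had 5.30 ± 0.17 on aged and 5.03 ± 0.04 on young arrays, and aged array 3, at 5.04, was the lowest aged array for them. Of 10 tested, 1 rose, Cd14, a co-receptor of monocytes (1.33 ± 0.25, adjusted p = 0.00634). Unlike the list mean, Cd14 was highest of the 14 arrays on aged array 3 (7.76). Of 4 platelet and 2 erythroid genes tested, 0 passed, and of 8 fibro-adipogenic genes, 1 rose, Dcn, the matrix proteoglycan decorin. Fibro-adipogenic genes had list means of 10.77 ± 0.49 on aged and 10.50 ± 0.17 on young arrays, higher than those of the satellite cell genes. The fibro-adipogenic list mean was highest on aged array 3 (11.36), followed by middle-aged array 3 (11.18) and aged array 2 (11.13). It was lowest on aged array 4 (10.17). List means rest on different probe sets, so they do not measure shares of cells. Satellite cell genes had list means of 9.36 ± 0.24 on aged and 9.90 ± 0.15 on young arrays, and of 12 tested, 2 fell, Calcr, the calcitonin receptor, and Fgfr4, a growth factor receptor. Beside the counts of these lists, 3.05% of all genes rose and 1.25% fell in aged against young cells. Calcr was not called when young 3, young 4, young 5 or aged 2 was left out (adjusted p from 0.0531 to 0.0590). Whether the proportion of any of these cells moves with the fall of Tek was not tested.

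**Figure D4:**
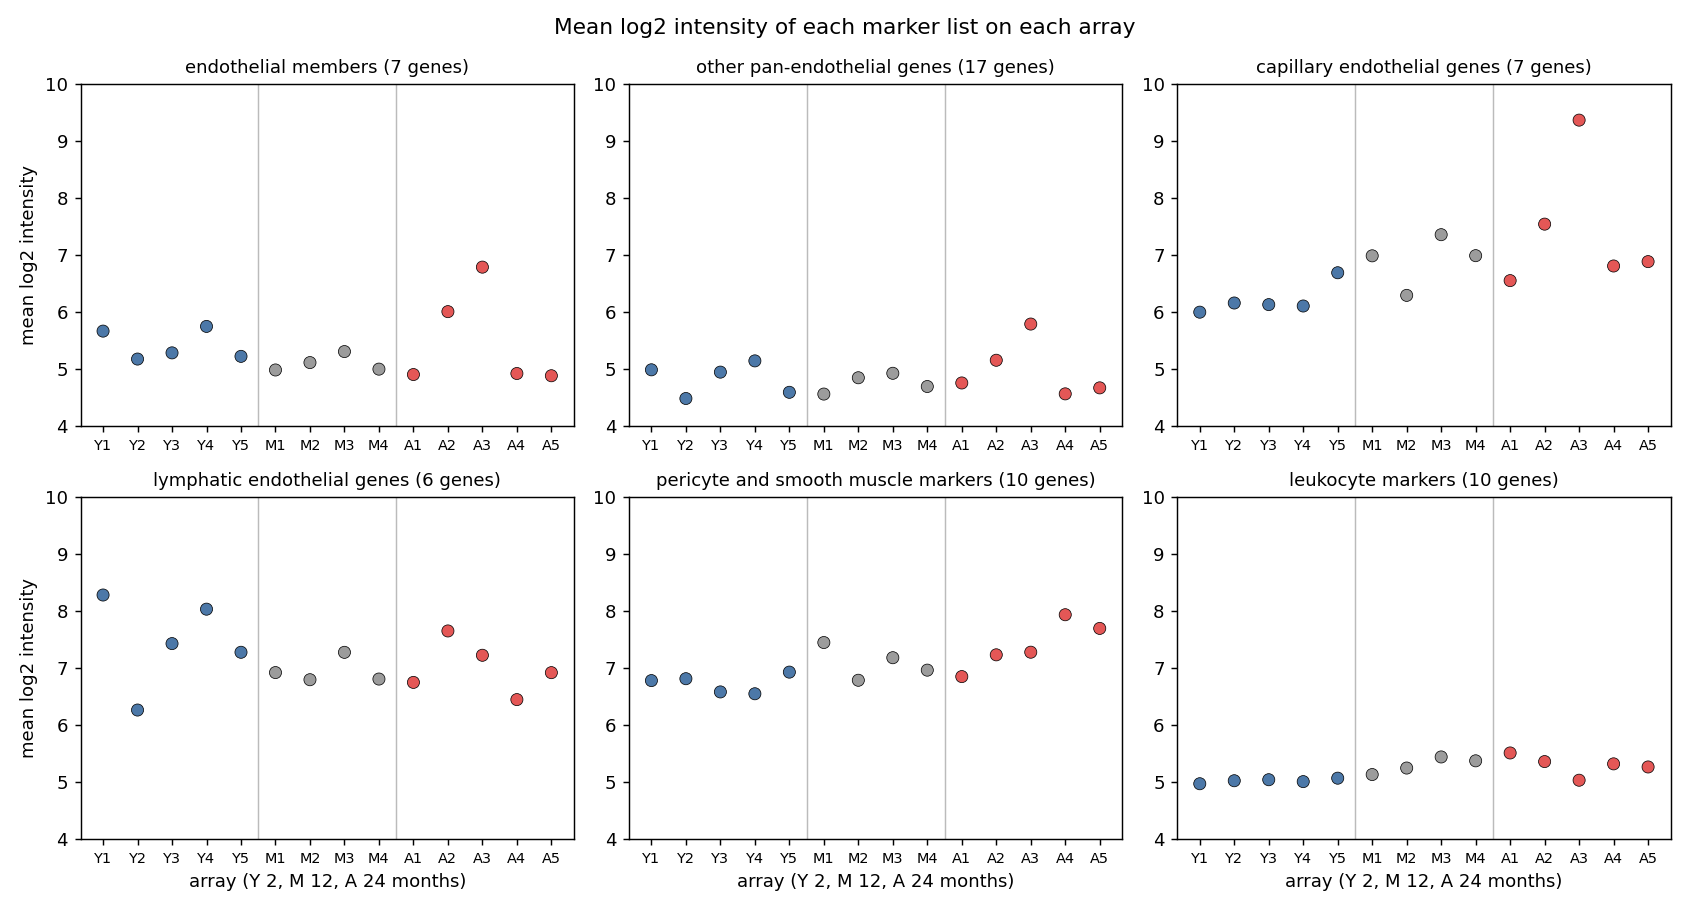
Mean log2 intensity of 6 of the marker lists on each array, with young (Y), middle-aged (M) and aged (A) arrays from left to right and the y axis from 4 to 10. Aged 3 is highest for the members (6.79), the other pan-endothelial genes (5.79) and the capillary genes (9.36), Y1 and Y4 for the lymphatic genes (8.28 and 8.03), and A4 for the pericyte genes (7.93).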

How the data were processed

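In all, 14 arrays of RNA from sorted cells were read: 5 young, 4 middle-aged and 5 aged, grouped by the labels. Per the labels' protocols, RNA was extracted with Trizol from enzymatically freed, sorted cells, and labelled by an Affymetrix 3' kit. RMA was the authors' method, per the submitters' processing notes (background correction, normalization across arrays, 1 value per probe set). The deposited intensity values are on a linear scale (array medians 19.0 to 21.2). Its version, the annotation and the build the authors used: not given in the sources used here.

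Log2 of the intensities was taken with no further normalization. Symbols came from the platform annotation, and probe sets with several genes (932) or none (9160) were left out of the tests, as were 64 control probe sets. Where several probe sets of a gene were kept, the one with the highest mean over all arrays stood for it. Using limma 3.58.1 under R 4.3.3, a model with age group and no other term was fitted to all arrays. Tests were two-sided and moderated, and p-values were adjusted by Benjamini and Hochberg's method across 13579 genes (threshold 0.05). The model was tested on simulated data. Alternatives are given in the closing section. Correlations between arrays ran from 0.960 to 0.989 and 0 pairs held identical values. The number of arrays limits the precision. Replicate numbers did not pair arrays: 5 of 13 same-number pairs had deviations correlated above 0.1 (range -0.48 to 0.26).

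The members, lists, tests, array sets and the exclusion of aged arrays 2 and 3 were chosen with earlier results of these data known. Every member was named, and from other lists any gene called in a pairwise comparison, otherwise up to 4 with the smallest p in aged against young cells, a fixed set (Fabp4, Pax7, Myod1, Itgb1, Cxcr4, Ptprc, Pdgfrb, Vegfa, Angpt1) and the 10 genes most like the members' mean. The refits without single arrays for genes outside the members were added after seeing the data.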

Additional observations from a re-analysis of the deposited data

Results flagged for a closer look

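Of 54 groups of 4 or 5 arrays examined, 51 for the members' probe sets and 3 for the mean of the tested members, 2 held an array far from the others, both for the dim Cdh5 probe set 1422047_at, which was below the 40th percentile on all 14 arrays. Young array 5, at log2 3.01, was the lowest young value, with the next at 3.29. Middle-aged array 1, at 3.13, was the lowest middle-aged value, with the next at 3.40. Chance alone marks about 1 in 20 such groups, so a count of 2 among 54 lies near what chance gives.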

How the results depend on the processing

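The count of members called in aged against young cells was 1 (Tek), and it was 0 with no filter on dim probe sets (Tek adjusted p = 0.0574), with every kept probe set fitted on its own (0.05004), with median centring (0.0508), with the 3' minus 5' covariate (0.0661) and with only the groups compared (0.0542). It was also 0 with the replicate number as a block (the replicate block gave Tek -1.18, adjusted p = 0.05004, just above the threshold), although the numbers did not pair the arrays. It stayed at 1 with a 60th percentile filter, quantile normalization, log2(value + 16), trend and robust moderation, array weights, the array set as a term and without aged arrays 2 and 3 together. With each array left out in turn the count was 0 to 1, and Tek ranged from -1.43 to -0.98. The cause was not tested. In the other comparisons the count was 0 under every alternative run. The members' median in aged against young cells was -0.46 without aged arrays 2 and 3 together, where Cdh5 (-0.38), Kdr (-0.48), Flt1 (-0.23) and Cldn5 (-0.67) turned negative, as did Cdh5 (-0.38), Kdr (-0.10) and Flt1 (-0.56) in aged against middle-aged cells. Leaving out single arrays, the median ran from -0.22 to 0.38, from -0.57 to -0.16 in middle-aged against young and from 0.18 to 0.50 in aged against middle-aged cells. Changes near 0 turned in sign: Cdh5 in middle-aged against young cells stood at -0.0246 (quantile), -0.0289 (centring), -0.0011 (log2(value + 16)), -0.0175 (array weights), -0.0072 (array set) and -0.0507 (replicate block). With the 3' minus 5' covariate Egfl7 in aged against young cells was 0.0339 and Esam in middle-aged against young cells -0.0195. Leaving out single arrays, the ranges that crossed 0 were -0.22 to 0.17 (Cdh5), -0.29 to 0.46 (Cldn5), -0.29 to 0.031 (Egfl7) and -0.090 to 0.63 (Kdr) in aged against young cells. They were -0.22 to 0.16 (Cdh5) and -0.22 to 0.20 (Flt1) in aged against middle-aged cells, and -0.12 to 0.13 (Cdh5) and -0.045 to 0.13 (Esam) in middle-aged against young cells. Over all genes the count called in middle-aged against young cells, 403 in the reported fit, was 1153 with array weights, 741 with the array set as a term, 717 with the covariate and 194 with the replicate block, and that in aged against young cells, 584, was 976 with the array set as a term.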

Other observations

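Sox17, a transcription factor of arterial endothelium, was singled out after its values were seen. Its dim probe set 1429177_x_at, whose suffix marks possible cross-hybridisation, read 8.74 on aged array 3 and 2.66 to 3.47 on the other 13 arrays, while its kept probe set 1421657_a_at read 4.28 on aged array 3 and 3.43 to 4.41 elsewhere. The 2 probe sets of Sox17 therefore differ on that array.

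Lymphatic genes were examined per array, also after their values were seen. Lyve1 read 8.04, 4.67, 6.76, 7.93 and 6.81 on young arrays 1 to 5, and Mmrn1, a secreted multimerin, 7.40, 4.62, 5.88, 6.97 and 5.88. Reln, which encodes the secreted protein reelin, read 9.17, 5.04, 7.86, 9.38 and 7.10. Flt4, the VEGF receptor of lymph vessels, read 6.45, 4.59, 6.33, 6.57 and 4.70. Among young arrays, these 4 genes were lowest on array 2, and arrays 1 and 4 were the 2 highest. Young arrays 1, 3 and 4 belong to array set 1, and young arrays 2 and 5 to set 2. On aged array 2 these genes, in that order, read 7.09, 6.23, 8.67 and 6.34, and on aged array 3 they read 7.51, 5.71, 6.82 and 5.20. Another kept Lyve1 probe set, 1453128_at, read 6.38 on aged 2 and 4.80 on aged 3. The other 2 genes of the list had another order: Prox1, the transcription factor of lymphatic identity, read 7.68, 7.55, 6.81, 6.36 and 8.12 on young arrays, lowest on array 4, and Pdpn, which encodes podoplanin, 10.93, 11.11, 10.93, 10.98 and 11.05, highest on array 2. These orders depend on the probe set that stands for the gene. Another kept Prox1 probe set, 1457432_at, read 6.39, 4.39, 4.78, 5.38 and 5.51 on young arrays, lowest on array 2 and highest on array 1. Another kept Flt4 probe set, 1421442_at, read 4.85, 4.96, 4.64, 4.97 and 4.96, lowest on array 3.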
